A study of Mus musculus with 3 samples.

Results

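The cells described here are macrophages of the mouse heart that carry transcripts of Ear2, an eosinophil-type ribonuclease, and Fn1, which encodes the matrix protein fibronectin. They came from wild type mice aged 32 to 34 weeks whose hearts were digested with collagenase and sorted for CD45, F4/80 and CD11b. Single-cell RNA was captured by droplets with a 3′ v2 kit, per the labels, in 1 library from mice on a Western diet (WD), 1 from mice on a high fat diet (HFD) and 1 from mice on the control diet (CD). Neither the number of mice behind a library nor what the diets were made of is given in the sources used here. A difference between diets therefore has no replicate to check it, and no test was made. All intervals are 95% intervals and cover counting error only, neither the spread between cells nor that between mice.

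Heart macrophages are commonly divided into resident cells that maintain themselves, marked by Timd4, Lyve1 and Folr2, and cells replenished from blood monocytes through the chemokine receptor Ccr2. Retnla encodes a secreted resistin-like protein that interleukin 4 and interleukin 13 induce through STAT6 in mouse macrophages. In the body cavities of mice, macrophages that arise from monocytes are known for transcripts of Retnla, Ear2, Fn1, Lyz1 and Ccr2.

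An Ear2 Fn1 cell was chosen by its transcript counts alone, that is by the measured values of the genes below. It needed at least 1000 unique molecular identifiers (UMIs, each standing for 1 captured transcript molecule), at least 200 genes and at most 10% mitochondrial UMIs. The complement genes C1qa, C1qb and C1qc had to make up at least 0.3% of its UMIs, and Ear2 and Fn1 together at least 2 UMIs. It held no UMI of Timd4 or Lyve1, and fewer than 3 of the monocyte genes Ly6c2, Plac8, Chil3, Hp and Ms4a4c were detected. The rule found 189 cells among 8012 C1q-gated cells and 10171 barcodes past the filters. They were 52 of 3717 C1q-gated cells in WD, 47 of 2002 in HFD and 90 of 2293 in CD.

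The genes of the rule and every gene that is high or low in these cells against the other C1q-gated cells describe the choice of the cells. They are given without a test and support nothing. The rule drew on 12 genes, and all other transcripts were summed over the cells of a library and scaled to a common total per library (CPM).

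The cells shared no barcode between libraries, although 10 C1q-gated barcodes occurred in both CD and HFD and 1 in both CD and WD. Among all filtered barcodes, 15 occurred in both CD and HFD, 1 in both CD and WD and 0 in both HFD and WD. The kit is known from the labels only, and whether the WD library was captured with the same barcodes was not tested. Ear2 Fn1 cells were deeper than the other C1q-gated cells, with a median of 18761.5 against 12187 UMIs in WD, 5636 against 2910 in HFD and 7287 against 4253 in CD. Their C1q genes stood lower, with a median of 0.563% against 0.803% of UMIs in WD, 1.01% against 2.27% in HFD and 1.04% against 2.20% in CD. A doublet score marked no Ear2 Fn1 cell in WD, 1 in HFD and 1 in CD, and 3.81% (WD), 2.17% (HFD) and 2.13% (CD) of all filtered barcodes. The share of all barcodes follows from a set rate. The median score of the Ear2 Fn1 cells was 0.7 in WD, 0.551 in HFD and 0.712 in CD, against 0.629, 0.551 and 0.577 in the other C1q-gated cells.

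The sequences before the starts of Ear2, Retnla, Lyz1 and Lyz2 are shown because Ear2 chose the cells, Retnla is the marker followed by diet below, and Lyz1 and Lyz2 are neighbouring copies of the lysozyme gene that behaved differently. They are the 250 bases before each RefSeq start on GRCm38.p6, written 5′ to 3′ on the strand of the gene. Capitals mark letters of the C/EBP motif (TTGCNNAA), the STAT6 motif or the PU.1 motif (GAGGAAGT) on either strand.
Ear2, chr14:44102404-44102653, plus strand: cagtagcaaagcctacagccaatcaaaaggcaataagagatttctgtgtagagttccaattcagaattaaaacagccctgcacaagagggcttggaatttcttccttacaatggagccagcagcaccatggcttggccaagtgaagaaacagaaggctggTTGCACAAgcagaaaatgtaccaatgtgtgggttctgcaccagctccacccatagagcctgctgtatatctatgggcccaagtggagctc
Retnla, chr16:48842359-48842608, plus strand: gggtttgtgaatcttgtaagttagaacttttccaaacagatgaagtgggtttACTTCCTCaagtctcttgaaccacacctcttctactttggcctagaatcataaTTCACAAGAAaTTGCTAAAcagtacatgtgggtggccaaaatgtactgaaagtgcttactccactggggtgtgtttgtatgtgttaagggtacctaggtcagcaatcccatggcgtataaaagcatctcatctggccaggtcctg
Lyz1, chr10:117292869-117293118, minus strand: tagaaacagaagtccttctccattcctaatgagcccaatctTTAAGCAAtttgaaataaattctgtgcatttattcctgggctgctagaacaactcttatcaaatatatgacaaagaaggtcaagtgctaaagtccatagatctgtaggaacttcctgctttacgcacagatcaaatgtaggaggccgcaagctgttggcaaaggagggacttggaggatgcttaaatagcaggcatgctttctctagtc
Lyz2, chr10:117282273-117282522, minus strand: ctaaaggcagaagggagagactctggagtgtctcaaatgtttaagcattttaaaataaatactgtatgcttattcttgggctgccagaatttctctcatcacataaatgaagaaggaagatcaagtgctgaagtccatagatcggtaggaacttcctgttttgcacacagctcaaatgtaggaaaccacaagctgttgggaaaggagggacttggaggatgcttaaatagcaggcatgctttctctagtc
The Retnla window held 1 match each to the STAT6, C/EBP and PU.1 letters, none of them overlapping. The Ear2 and Lyz1 windows held 1 C/EBP match each, and the Lyz2 window held none. Over 32851 promoter windows of 27025 genes, cut to the same length, 5.85% held the STAT6 letters, 9.56% the C/EBP letters and 2.44% the PU.1 letters. The letters TTCNNNGAA of other STAT proteins (7.02% of windows) and TGANTCA of AP-1 (6.75%) matched in none of the 4 windows. Lyz1 and Lyz2 shared 205 of 260 aligned positions, or 78.8%. Of the windows of 91 bases in the last 600 bases of the transcripts, 98 of 510 in Ear2 also occurred in Ear1, Ear10 or Ear-ps2, and 14 of 510 in Lyz1 also occurred in Lyz2, so that reads from those stretches could not be assigned to a single gene.

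The genes of the rule stood as the rule requires. Ear2 (GRCm38 chr14:44102654-44103534, plus strand) had 291 CPM in the Ear2 Fn1 cells against 20.2 CPM in the other C1q-gated cells of WD, 1162 against 18.0 CPM in HFD and 702 against 50.2 CPM in CD. Fn1 (chr1:71585520-71653200, minus strand) had 965 against 82.8 CPM in WD, 615 against 19.9 CPM in HFD and 490 against 45.8 CPM in CD. Both transcripts were found in 21 of the 52 WD cells, 30 of the 47 HFD cells and 50 of the 90 CD cells. Ear2 alone was found in 10, 9 and 25 of these cells, and Fn1 alone in 21, 8 and 15.

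The 4 proposed markers outside the rule, Retnla, Lyz1, Mmp12 and Tnip3, were all higher in the Ear2 Fn1 cells of all 3 libraries. Retnla (chr16:48842551-48844461, plus strand) had 6354 against 601 CPM in WD, 21713 against 1227 CPM in HFD and 9188 against 1594 CPM in CD, which is 10.6-fold, 17.7-fold and 5.76-fold higher. Lyz1 (chr10:117287797-117292868, minus strand) encodes the lysozyme otherwise known from Paneth cells of the gut. It had 451 against 88.6 CPM in WD, 2001 against 300.3 CPM in HFD and 801 against 223 CPM in CD, which is 5.08-fold, 6.66-fold and 3.59-fold higher. Its neighbour Lyz2 (chr10:117277331-117282321, minus strand), the lysozyme of myeloid cells, had 8205 against 7826 CPM in WD, 23290 against 21454 CPM in HFD and 17585 against 18058 CPM in CD. The Lyz2 ratios were 1.05, 1.09 and 0.974, so Lyz2 did not separate the cells from the others.

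Mmp12 (chr9:7344381-7369499, plus strand) encodes macrophage elastase, a protease of elastic fibres. Its level was 696 against 77.8 CPM in WD, 408 against 30.5 CPM in HFD and 931 against 40.9 CPM in CD, or 8.95-fold, 13.4-fold and 22.7-fold higher. Without the cell with the most Mmp12 UMIs in each library the ratios were 7.99, 10.5 and 15.2. Tnip3 (chr6:65525313-65634040, plus strand) encodes a protein that binds A20 and restrains NF-kB. Its level was 819 against 177 CPM in WD, 74.9 against 8.69 CPM in HFD and 248 against 28.8 CPM in CD, which is 4.63-fold, 8.63-fold and 8.61-fold higher.

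Ccr2 (chr9:124101950-124113557, plus strand), the receptor that draws monocytes into tissue, was higher in the Ear2 Fn1 cells of each library. Its level was 612 against 79.5 CPM in WD, 798 against 177 CPM in HFD and 518 against 168 CPM in CD, or 7.70-fold, 4.51-fold and 3.09-fold higher. At least 1 Ccr2 UMI was found in 98.1% against 20.8% of cells in WD, 97.9% against 18.1% in HFD and 86.7% against 25.5% in CD. With every cell thinned to 1000 UMIs these shares were 48.1% against 4.26%, 48.9% against 10.6% and 42.2% against 11.8%. Retnla UMIs were found in 39 of 52, 38 of 47 and 63 of 90 Ear2 Fn1 cells, and in 42.4%, 21.1% and 30.2% of the other cells at the depths given above.

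**Figure D1:**
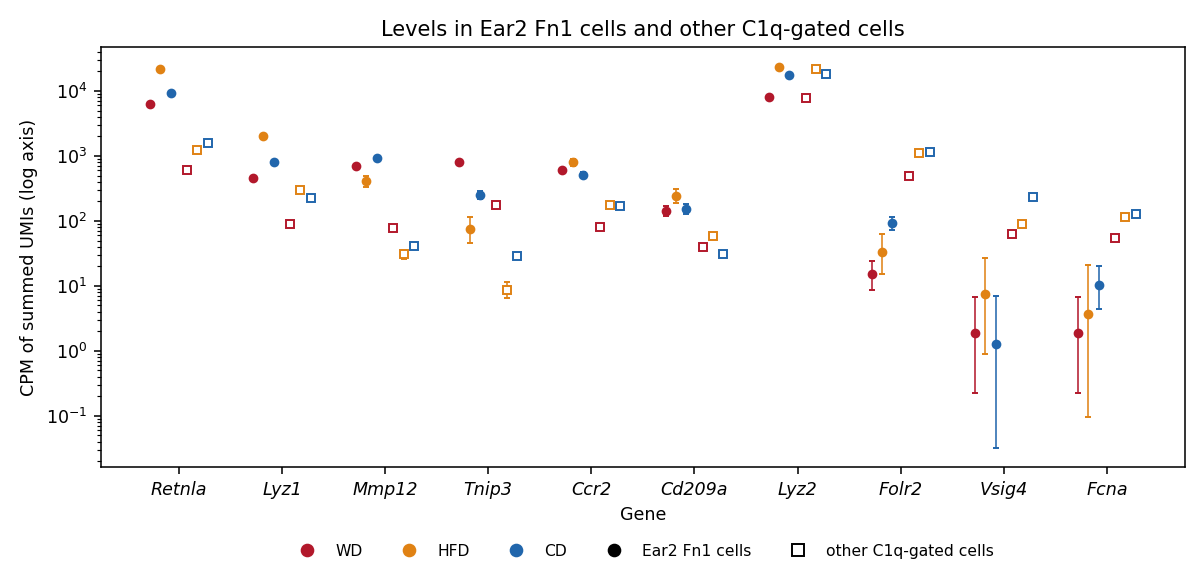
Level of 10 genes in CPM of summed UMIs (log axis) in Ear2 Fn1 cells (filled circles) and other C1q-gated cells (open squares) of the WD, HFD and CD libraries, with exact Poisson 95% intervals. Retnla, Lyz1, Mmp12, Tnip3, Ccr2 and Cd209a stand higher in the Ear2 Fn1 cells, Folr2, Vsig4 and Fcna stand lower, and Lyz2 lies at the same height in both. The direction of Cd209a turned in CD with the thinned gate, to a log2 ratio of -0.89, and in HFD without cells of dendritic markers, to -2.35.

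Single Ear2 Fn1 cells differed widely in these markers. Retnla ranged in WD up to 40136 CPM with a median cell at 1404, in HFD up to 134511 with a median at 11234, and in CD up to 121118 with a median at 6782. No Retnla UMI was found in 13 WD, 9 HFD and 27 CD cells. Ccr2 varied less, with a coefficient of variation over cells of 0.927 in WD, 0.719 in HFD and 0.790 in CD, against 1.45, 1.26 and 1.5 for Retnla. Of Retnla, Lyz1, Mmp12 and Tnip3, at least 2 were detected in 76.9% of the Ear2 Fn1 cells of WD, 74.5% in HFD and 75.6% in CD, against 24.0%, 7.31% and 11.2% of the other C1q-gated cells. Among C1q-gated cells with at least 3 of the monocyte genes, the share was 50.7% in WD and 13.5% in CD, at medians of 35796.5 and 8492.5 UMIs. These shares were taken at full depth, and the Ear2 Fn1 cells were deeper than the other C1q-gated cells. Lyz1 UMIs were found in 53.8% of the Retnla-carrying cells against 7.69% of those without Retnla in WD, 71.1% against 22.2% in HFD and 50.8% against 14.8% in CD.

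**Figure D2:**
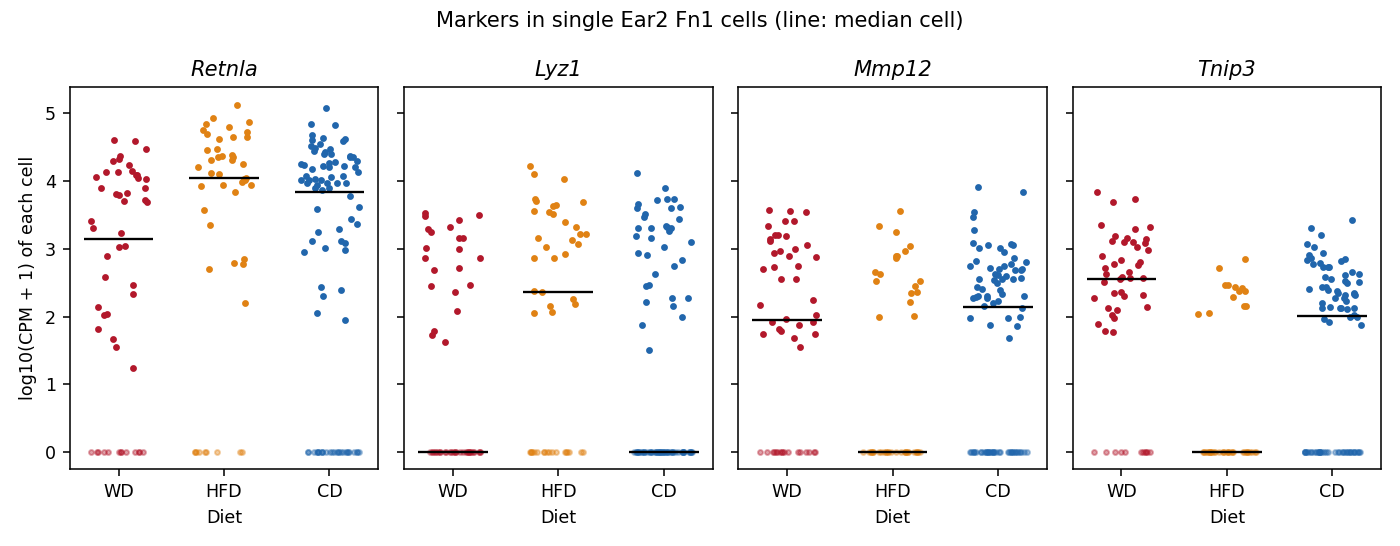
Retnla, Lyz1, Mmp12 and Tnip3 in each Ear2 Fn1 cell as log10 of CPM plus 1, by diet (WD, HFD, CD); each point is a cell and the line is the median cell. Cells without a UMI lie at 0, and the Retnla medians lie at 1404 CPM in WD, 11234 CPM in HFD and 6782 CPM in CD.

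Cells with Ear2 held more Retnla than cells with Fn1 alone. Retnla stood at 11288 CPM (10986 to 11597) in cells with both, 3803 CPM (3535 to 4086) with Ear2 alone and 1868 CPM (1737 to 2006) with Fn1 alone in WD. In HFD it stood at 27980 CPM (27217 to 28760), 13611 CPM (12536 to 14754) and 2722 CPM (2243 to 3273), and in CD at 12598 CPM (12276 to 12925), 8402 CPM (7948 to 8875) and 693 CPM (574 to 829). The order was the same in the 3 libraries, but a few cells held much of the Retnla. In WD 2 of the 10 cells with Ear2 alone held 69.1% of its UMIs, and in HFD 2 of the 8 cells with Fn1 alone held 98.2%. Without the leading 2 cells of each subset, the levels in WD were 8878 CPM with both, 1457 CPM with Ear2 alone and 788 CPM with Fn1 alone. They were 24217, 5105 and 69.3 CPM in HFD and 11671, 5125 and 107 CPM in CD. Mmp12 followed that order in WD, at 946 CPM with both, 756 CPM with Ear2 alone and 378 CPM with Fn1 alone. It stood at 429, 345 and 385 CPM in HFD and at 641, 236 and 2329 CPM in CD. In CD 2 cells held 94.0% of the Mmp12 UMIs of the 15 cells with Fn1 alone, and without them the level was 195 CPM. Of the 8 HFD cells with Fn1 alone, 1 held all 16 Mmp12 UMIs. Ccr2 differed less between these subsets, with a range of 385 to 867 CPM in WD, 759 to 964 CPM in HFD and 460 to 545 CPM in CD.

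On the Ear2 and Fn1 threshold, cells with exactly 2 UMIs of Ear2 plus Fn1, just inside, had 3282 CPM of Retnla in WD (7 cells), 9772 CPM in HFD (7 cells) and 1423 CPM in CD (14 cells). Cells with 1 such UMI that met the rest of the rule, just outside, had 630 CPM (38 cells), 1228 CPM (28 cells) and 1354 CPM (40 cells). A few cells carried the Retnla just inside. In WD 2 of the 7 held 91.9% of its UMIs and the other 5 reached 389 CPM. In HFD 1 of the 7 held 61.3%, and without it the level was 4369 CPM. In CD 2 of the 14 held 61.0%, and without them the level was 617 CPM. No leading cell was left out of the cells just outside, so these levels are not like for like with theirs. The exclusion of Timd4 and Lyve1 removed cells whose Retnla and Lyz1 also stood above those of the other C1q-gated cells. Cells with 2 or more UMIs of Timd4 plus Lyve1 and otherwise in the rule had 2247 CPM of Retnla in WD (130 cells), 18647 CPM in HFD (11 cells) and 6700 CPM in CD (49 cells). Their Lyz1 stood at 346, 4024 and 1147 CPM, while Ccr2 stood at 241, 352 and 225 CPM and Folr2 at 367, 649 and 1019 CPM. With exactly 1 such UMI, Retnla stood at 1756 CPM in WD (20 cells), 15358 CPM in HFD (4 cells) and 11689 CPM in CD (15 cells).

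The label of monocyte-derived macrophages was set against the markers of both names. Ccr2 was as given above. A list of 5 genes of classical monocytes, which includes Ccr2 and the resident-list gene F13a1, stood lower than in the other C1q-gated cells. It summed to 1277 against 3394 CPM in WD, 1165 against 1239 CPM in HFD and 1056 against 1861 CPM in CD. For 9 genes of nonclassical monocytes the sums were 340 against 498 CPM, 311 against 487 CPM and 490 against 433 CPM. No transcript count shows where a cell came from, which was not tested. Of 16 macrophage identity genes, Csf1r, the receptor of the macrophage growth factor CSF1, stood at 385 against 736 CPM in WD, 356 against 956 CPM in HFD and 370 against 922 CPM in CD. Adgre1, which encodes the F4/80 antigen of the sort, stood at 287 against 382 CPM, 154 against 447 CPM and 189 against 472 CPM. C5ar1, a complement receptor, stood at 178 against 501 CPM, 119.9 against 764 CPM and 160 against 785 CPM. These 3 genes thus stood lower than in the other C1q-gated cells of each library.

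Markers of conventional dendritic cells stood higher in the Ear2 Fn1 cells. Summed over 14 genes, which include Tnip3, they reached 1182 against 347 CPM in WD, 674.5 against 202 CPM in HFD and 745.6 against 193.5 CPM in CD, led by Tnip3, Naaa and Cd209a. Of these markers, Xcr1 and Clec9a were at 0 in all 3 libraries, Zbtb46, Ccr7 and Itgae were at 0 in HFD and CD, and Fscn1 was at 0 in WD and HFD. At least 3 of the list other than Tnip3 were detected in 26.9% of the Ear2 Fn1 cells against 9.28% of the other cells in WD, 10.6% against 0.614% in HFD and 13.3% against 1.86% in CD. Genes of macrophages of the body cavities, a list of 10 that includes Retnla and Lyz1, summed to 6835 against 762 CPM in WD, 23751 against 1594 CPM in HFD and 10043 against 1865 CPM in CD. Without Retnla and Lyz1 the list summed to 31.0 against 72.7 CPM, 37.5 against 67.0 CPM and 53.3 against 47.3 CPM. Alox15 and Prg4 of that list were at 0 in all 3 libraries, and Gata6, the transcription factor of peritoneal macrophages, had 2 UMIs in WD, 0 in HFD and 1 in CD. A list of 9 genes of alveolar macrophages summed to 170 against 49.8 CPM in WD, 37.5 against 16.4 CPM in HFD and 22.9 against 14.2 CPM in CD. It was led in WD and CD by Pparg, a nuclear receptor of lipid metabolism, at 169 against 47.9 CPM in WD and 16.5 against 7.83 CPM in CD, and in HFD by Car4 with 5 UMIs. Marco, Ear10, Krt79 and Krt19 of that list were at 0 in all 3 libraries. The part of these cell types in the results was not tested.

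Against the other C1q-gated cells, 106 of 8680 genes with at least 20 UMIs were at least 2-fold higher in all 3 libraries, or 1.22%, and 209 were lower, or 2.41%. Within a library, 8.3% of genes were higher and 10.1% lower in WD, 5.55% higher and 17.0% lower in HFD, and 5.6% higher and 12.5% lower in CD. These counts come from the contrast that chose the cells, so the counts of each list below are set beside them and nothing is read from them. The median log2 ratio of all genes was -0.01 in WD, -0.19 in HFD and -0.12 in CD.

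Beside the proposed markers, the genes ranked highest by their smallest ratio included Cd2, an adhesion receptor best known from T cells, with 51.6 against 9.48 CPM in WD, 154 against 9.32 CPM in HFD and 63.5 against 8.39 CPM in CD. Olfm1, which encodes a secreted olfactomedin, had 102 against 18.3 CPM, 101 against 15.9 CPM and 78.7 against 17.3 CPM. Emb, a chaperone of monocarboxylate transporters, had 265 against 55.0 CPM, 225 against 60.7 CPM and 185 against 52.8 CPM, and was found in 88.5%, 59.6% and 73.3% of the Ear2 Fn1 cells. Cd209a, a C-type lectin of dendritic cells, had 143 against 40.2 CPM, 244 against 59.1 CPM and 154 against 30.9 CPM, but was found in 17.3%, 12.8% and 17.8% of the cells, and 1 HFD cell held 56.9% of its UMIs there. Its log2 ratio turned to -0.89 in CD with the thinned gate, and to -2.35 in HFD without the cells with 3 or more dendritic cell markers. Tmsb10, which binds actin monomers, was found in nearly all cells and was 3.66-fold, 4.24-fold and 3.30-fold higher. Sh2d1b1, Hepacam2, Prelid2 and H2-DMb2 ranked among the first 15 as well, with ratios between 3.30 and 8.55. Spp1 and Gpnmb, which encode osteopontin and a lysosomal glycoprotein, also ranked there, but they rested on single cells. In HFD 1 cell held 98.1% of the Spp1 UMIs and 96.0% of the Gpnmb UMIs, and without it the ratios of 31.5 and 6.24 became 0.598 and 0.256. In WD 1 cell held 84.2% of the Gpnmb UMIs, and the ratio of 4.48 became 0.718.

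Genes of resident macrophages were lower. Of 20 such genes, 19 were at least 2-fold lower in all 3 libraries and none was higher, with a median log2 ratio of -2.88 in WD, -2.76 in HFD and -3.24 in CD. Timd4 and Lyve1 belong to the rule and are not counted. Folr2, a folate receptor, stood at 15 against 492 CPM in WD, 33.7 against 1128 CPM in HFD and 92.7 against 1170 CPM in CD, or 32.8-fold, 33.4-fold and 12.6-fold lower. Cbr2, a carbonyl reductase, was 10.2-fold, 9.32-fold and 16-fold lower. Gas6, a ligand that bridges dying cells to phagocytes, was 16.3-fold, 19.5-fold and 9.39-fold lower. Cbr2, Gas6 and Folr2 ranked among the 10 lowest genes, as did the lectin gene Fcna, Ltc4s of leukotriene synthesis, the complement gene C4b, Sgce, the chemokine gene Ccl24 and the iron exporter gene Slc40a1. Ccl24 stood at 7.51 against 192 CPM in WD, 67.5 against 463 CPM in HFD and 35.6 against 454 CPM in CD. The complement receptor Vsig4 rested on 2, 2 and 1 UMIs in the Ear2 Fn1 cells against 3701, 559 and 2459 UMIs in the others. Against the C1q-gated cells that were also free of Timd4, Lyve1 and 3 monocyte genes, 11 of the resident genes stayed at least 2-fold lower in all 3 libraries, and Folr2 in that group stood at 53.4 CPM in WD, 392 CPM in HFD and 397 CPM in CD. Against that group 0.963% of 7791 genes were higher and 1.69% lower in all 3 libraries, with 5.21% higher and 10.1% lower in WD, 3.93% and 16.6% in HFD, and 4.0% and 11.5% in CD.

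A list of genes of Ccr2-bearing macrophages had 5 of 19 members at least 2-fold higher in all 3 libraries and none lower, with medians of 0.62 in WD, 0.80 in HFD and 0.89 in CD. They were Ccr2, Cd52, Napsa and the calcium-binding S100a4 and S100a6. S100a6 stood at 1198 against 434 CPM in WD, 2582 against 595 CPM in HFD and 2281 against 864 CPM in CD. Napsa, an aspartic protease, stood at 58.2 against 27.0 CPM, 172 against 22.3 CPM and 170 against 31.6 CPM. The MHC class II list had 2 of 10 members higher in all 3 libraries and none lower, with medians of 1.25 in WD, 0.64 in HFD and 0.96 in CD. Without the cell with the most UMIs of the gene, the 2 stayed above the other cells, but only 1 stayed past 2-fold in all 3 libraries. H2-DMb2 and H2-DMa form the chaperone that loads peptides, and H2-DMb2 stood at 28.2 against 7.57 CPM, 139 against 18.3 CPM and 128 against 15 CPM. H2-Aa, a chain of the presenting molecule, stood at 7184 against 3571 CPM, 14203 against 10433 CPM and 10678 against 5908 CPM.

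Genes of lipid-associated macrophages split in direction, with 6 of 18 higher and 2 lower in all 3 libraries. Of the 6, Spp1 and Gpnmb rested on single cells. Without the cell that held the most UMIs of the gene, 4 stayed above the other cells and 3 of them stayed past 2-fold. Fabp5, a fatty acid carrier, stood at 61.9 against 22.3 CPM in WD, 176 against 46.9 CPM in HFD and 456 against 70.3 CPM in CD. Lpl, lipoprotein lipase, stood at 388 against 84.5 CPM, 337 against 89.4 CPM and 483 against 213 CPM. Apoe, the apolipoprotein of macrophages, was lower instead, at 2154 against 10079 CPM, 5951 against 25459 CPM and 5510 against 23514 CPM, as was the cholesterol exporter Abca1. The alternative activation list split as well, since Retnla and the transcription factor Irf4 were higher in all 3 libraries while Mrc1, Clec10a, Ccl24 and Ccl8 were lower, of 12 genes. Without the leading cell of each gene, the 2 higher genes stayed above the other cells, but only 1 stayed past 2-fold in all 3 libraries. Arg1, an arginase that interleukin 4 induces with Retnla in mouse macrophages, had 2 UMIs in WD, 0 in HFD, which allows up to 11.2 CPM, and 1 in CD.

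Among matrix genes and proteases, Mmp12, Spp1 and Adam8 were higher and Mmp9 lower in all 3 libraries, of 13 genes, and Spp1 in HFD rested on 1 cell, without which its log2 ratio was -0.74. The integrin list had 1 of 14 genes higher, Itgax, which encodes CD11c, at 80.7 against 14.7 CPM in WD, 41.2 against 7.27 CPM in HFD and 58.4 against 10.1 CPM in CD. Glycolysis had 1 of 15 genes higher, Pfkp, and medians of 0.80, 0.58 and 0.88. NF-kB genes had Tnip3 higher and Ccl7 lower of 14, immediate early genes had Klf2 lower of 19, and growth factors had Igf1 and Nrp1 lower of 11. No gene of the interferon response (16 genes) or of proliferation (13 genes) was past 2-fold in all 3 libraries, although 11 of 18 interferon genes were lower in CD.

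**Figure D3:**
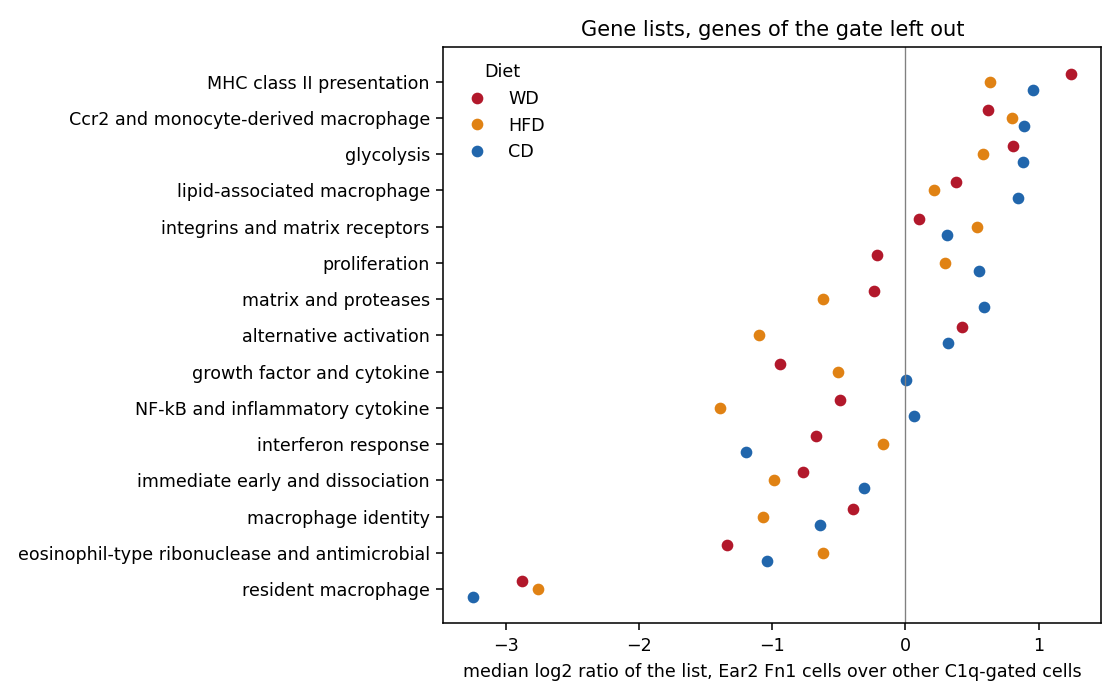
Median log2 ratio of Ear2 Fn1 cells over other C1q-gated cells for 15 gene lists (rows), with a point for each diet (WD, HFD, CD). The resident list lies lowest, at -2.88 in WD, -2.76 in HFD and -3.24 in CD, and the MHC class II, Ccr2 and glycolysis lists lie above 0 in each library.

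Cells marked by at least 3 monocyte genes, the most closely related cells by name, had lower levels of Retnla, Mmp12 and Ccr2 in WD and CD. Retnla stood at 6354 CPM in Ear2 Fn1 cells against 460 CPM in the 148 monocyte-marked cells of WD, and at 9188 against 1095 CPM in the 52 monocyte-marked cells of CD. Mmp12 stood at 696 against 93.2 CPM in WD and at 931 against 38.9 CPM in CD, and Ccr2 at 612 against 216 CPM and 518 against 367 CPM. The doublet score marked 15 of the 148 and 5 of the 52 monocyte-marked cells. HFD held 3 monocyte-marked cells and is not compared. In the space of the 2000 most variable genes without those of the rule, with 15 neighbours a cell, the neighbours of Ear2 Fn1 cells were Ear2 Fn1 cells in 25.8% of cases in WD, 33.9% in HFD and 39.4% in CD. Their shares among C1q-gated cells were 1.40%, 2.35% and 3.92%. Monocyte-marked cells made up 3.97%, 1.42% and 4.15% of those neighbours, cells with Timd4 or Lyve1 47.2%, 18.0% and 32.1%, and the remaining C1q-gated cells 23.1%, 46.7% and 24.4%. Among all C1q-gated cells, monocyte-marked cells were 3.98%, 0.15% and 2.27%, cells with Timd4 or Lyve1 73.4%, 44.1% and 53.6%, and the remaining cells 21.3%, 53.4% and 40.2%.

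Ear2 Fn1 cells made up a smaller share of C1q-gated cells in WD and HFD than in CD. The share was 1.40% (1.05 to 1.83) in WD, 2.35% (1.73 to 3.11) in HFD and 3.92% (3.17 to 4.80) in CD, by exact Clopper-Pearson intervals. With every cell thinned to 1000 UMIs before the gate it was 0.983% (0.689 to 1.36), 1.49% (1.00 to 2.11) and 2.13% (1.58 to 2.81), so the HFD interval then overlapped both others. The thinned gate chose partly other cells, since 15 of 36 in WD, 22 of 30 in HFD and 31 of 49 in CD also met the rule at full depth. CD stood highest and WD lowest under 12 of 12 alternative gates. All of these gates cut the same libraries again, and none lowered the C1q minimum of 0.3%. The median C1q share of the other C1q-gated cells was 0.803% in WD, 2.27% in HFD and 2.20% in CD. The part of that minimum in the WD share was not tested. Before cells with Timd4 or Lyve1 were left out, the order differed, at 7.32% (6.50 to 8.20) in WD, 3.15% (2.43 to 4.01) in HFD and 8.20% (7.11 to 9.40) in CD. Thinned to 1000 UMIs, these shares were 1.39% (1.04 to 1.83) in WD, 1.53% (1.05 to 2.17) in HFD and 2.52% (1.92 to 3.25) in CD, with WD lowest again. That exclusion removed 217 of 272 cells in WD, 15 of 63 in HFD and 86 of 188 in CD, and it requires 0 UMIs at depths that differ between libraries.

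**Figure D4:**
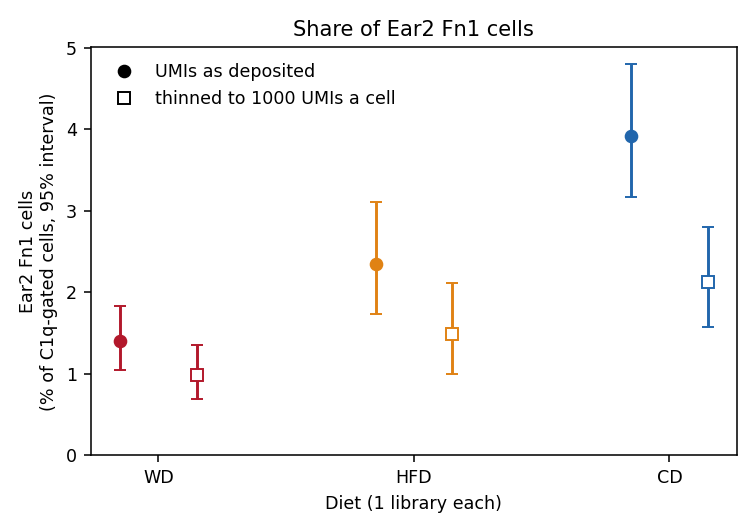
Share of Ear2 Fn1 cells among C1q-gated cells (percent, exact 95% intervals) in the WD, HFD and CD libraries, at the depth of the files (filled circles) and with cells thinned to 1000 UMIs (open squares). The shares are 1.40%, 2.35% and 3.92% at full depth and 0.983%, 1.49% and 2.13% after thinning.

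The first comparison of diets sets HFD against CD. In the Ear2 Fn1 cells of HFD, Retnla and Lyz1 were higher than in CD, while Mmp12, Tnip3, chemokine genes and immediate early genes were lower. Retnla was 2.36-fold (2.28 to 2.45) higher, at 21713 CPM in HFD and 9188 CPM in CD, and in the other C1q-gated cells it stood at 1227 and 1594 CPM. Lyz1 was 2.50-fold (2.22 to 2.81) higher, at 2001 and 801 CPM, and at 300.3 and 223 CPM in the other cells. Mmp12 was 2.28-fold (1.86 to 2.81) lower and Tnip3 3.30-fold (2.08 to 5.53) lower. The Mmp12 direction rested on a few cells, since the 47 HFD cells stood at 408 CPM. CD cells with Fn1 alone stood at 195 CPM without their leading 2 cells, and those with both genes at 337 CPM without their leading cell. CD cells with Ear2 alone stood at 236 CPM. In HFD, cells with both genes stood at 297 CPM without their leading cell. Ccr2 was 1.54-fold (1.30 to 1.82) higher. Mmp12 took the other direction when cells were thinned before the gate, with a log2 ratio of 0.79.

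Of 4830 genes with at least 20 UMIs over the Ear2 Fn1 cells of both libraries, 2.65% were higher by 2-fold or more in HFD and 12.9% were lower, and the median log2 ratio was -0.14. Among NF-kB and cytokine genes, 14 of 16 were lower and none higher, with a median of -2.36. In the other C1q-gated cells 17 of 20 were lower, with a median of -1.70, where 2.38% of all genes were higher and 3.64% lower. Cxcl2, a chemokine for neutrophils, had 1 UMI in HFD and 1673 UMIs in CD, a ratio of 567 (102 to 22410) in favour of CD. Ccl4, which encodes the chemokine MIP-1 beta, had 1 UMI in HFD and 226 in CD. Nfkbiz, an inducible regulator of NF-kB, had 2 UMIs in HFD and 118 in CD. Tnf had 0 UMIs in HFD and 30 in CD, and was at least 3.39-fold lower in HFD against the level of 3 UMIs.

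Immediate early genes, which stimulation and tissue digestion induce within minutes, were lower in 15 of 18 cases and higher in none, with a median of -2.47, and in the other cells in 15 of 19 cases with a median of -1.67. Fos had 71.2 CPM in HFD and 1579 CPM in CD, which is 22.2-fold (14.1 to 37.0) lower in HFD. Fosb had 2 UMIs in HFD and 138 in CD, and Ier3 had 3 and 185. The labels give 1 protocol of digestion for all libraries, and the part of digestion in these values was not tested. Lipid-associated genes were lower in 7 of 17 cases, with a median of -0.97, among them Fabp5 at 176 CPM in HFD and 456 CPM in CD and the fatty acid receptor Cd36 at 154 and 384 CPM. None of 10 MHC class II genes was past 2-fold, and their median was 0.38. Interferon response genes were higher in 5 of 12 cases and lower in 2, with Irf7, a regulator of interferon genes, at 67.5 CPM in HFD and 16.5 CPM in CD, and Ifit3 at 48.7 and 10.2 CPM. Both rested on fewer than 20 UMIs in each library.

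Among genes with at least 100 UMIs, those ranked highest in HFD were Gm42418, Lyz1, Retnla and Mxd4. Gm42418, a non-coding transcript that overlaps ribosomal RNA, was 3.84-fold (2.73 to 5.42) higher, and Mxd4, which encodes a partner of MAX, 2.14-fold (1.40 to 3.23) higher. Gng2, Tmem37, Mndal, Marc2, Rhog and F13a1 completed the first 10 without reaching 2-fold. The lowest were Cxcl2, Ccl17, Ccl4, Ccrl2, Rgs1, Fosb, Fos, Ier3, Nfkbiz and Gadd45b. Ccl17, a chemokine of dendritic cells and activated macrophages, had 1 UMI in HFD and 315 in CD, a log2 ratio of -6.74. With the leading cell of each library left out, no Ccl17 UMI remained in HFD. The log2 ratio was then at most -4.16, a bound set by the level of 3 UMIs.

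**Figure D5:**
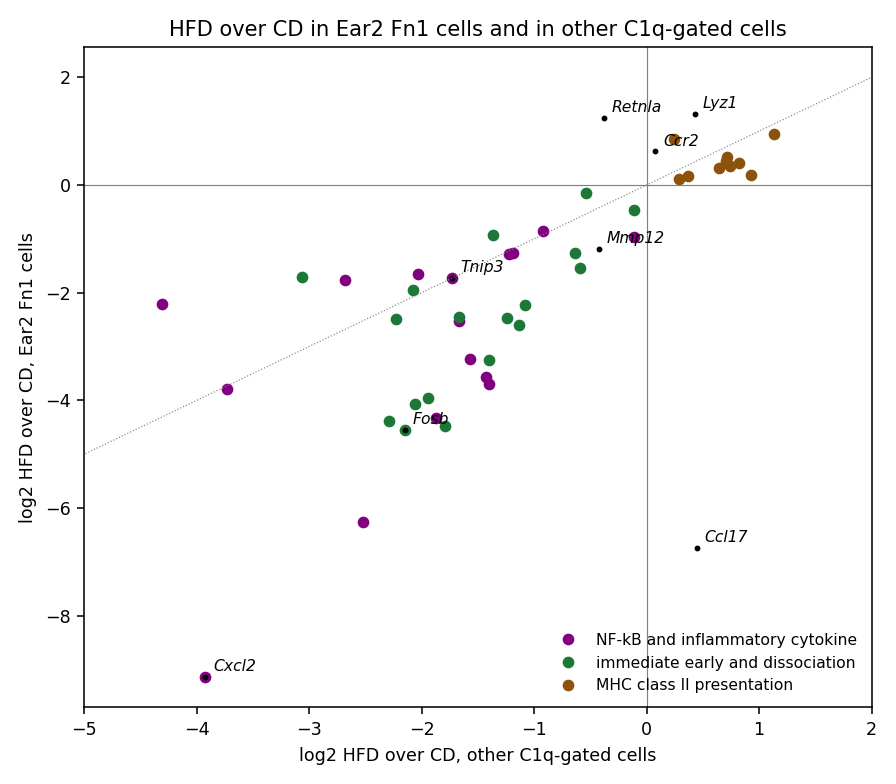
Log2 ratio of HFD over CD in Ear2 Fn1 cells (vertical) against that in other C1q-gated cells (horizontal) for NF-kB, immediate early and MHC class II genes and for labelled genes; each point is a gene and the dotted line marks equal ratios. NF-kB and immediate early genes lie in the lower left, and Retnla lies at 1.24 in Ear2 Fn1 cells and at -0.38 in other cells.

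The comparison of WD with CD asks the same of the Western diet, but it also compares libraries written by different software versions, 7.2.0 for WD and 3.0.1 for CD, per the file headers. Depth differed as well, with a median of 18761.5 UMIs in the Ear2 Fn1 cells of WD and 7287 in those of CD. The 2 libraries shared 1 filtered barcode. In the Ear2 Fn1 cells of WD, Retnla stood at 6354 CPM and in those of CD at 9188 CPM, which is 1.45-fold (1.40 to 1.5) lower in WD. Lyz1 was 1.78-fold (1.58 to 2.01) lower in WD and Mmp12 1.34-fold (1.21 to 1.48) lower. The Mmp12 level of CD rested on a few cells, as given above. Tnip3 was 3.31-fold (2.83 to 3.88) higher, at 819 CPM in WD and 248 CPM in CD. Ccr2 was 1.18-fold (1.04 to 1.34) higher, whereas in the other cells it stood at 79.5 CPM in WD and 168 CPM in CD. Tnip3 took the other direction, with a log2 ratio of -1.74, when C1q genes had to reach 1% of the UMIs.

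Of 7466 genes, 36.4% were higher by 2-fold or more in WD and 16.5% were lower, and the ratios followed gene length. The median log2 ratio was -0.81 over the 1866 shortest genes, spanning at most 11145 bases, and 2.20 over the 1866 longest, spanning at least 62915 bases. Between HFD and CD it was -0.14 over the 1207 shortest and -0.08 over the 1207 longest genes. Diet, software, depth, any difference in capture and gene length cannot be told apart here. The genes ranked highest, Plcl1, Atp6v0c, Gab2, Abtb2, Atrnl1 and Gm42418, were also high in the other cells. Gab2, a signalling adaptor, had 756 CPM in WD and 5.08 CPM in CD, and 853 and 12.5 CPM in the other cells. The lowest were S100a8, Ccl8, Ccl17, Coro1b, Gpnmb and Wdr89.

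Set beside that background, 11 of 19 NF-kB genes were higher in the WD cells and none lower, with a median of 1.15, and in the other cells 17 of 20 were higher with a median of 1.87, where 37.0% of all genes were higher. Il1b, interleukin 1 beta, had 880 CPM in WD and 126 CPM in CD, or 7.0-fold (5.69 to 8.70) more. Immediate early genes were higher in 11 of 19 cases and lower in 2, with a median of 1.24, and in the other cells in 15 of 19, with a median of 1.52. Lipid-associated genes were lower in 11 of 18 cases and higher in 2, with a median of -1.47, among them Fabp5 at 61.9 CPM in WD and 456 CPM in CD. In the other cells, where 17.0% of all genes were lower, 11 of 18 were lower and 2 higher, with a median of -1.17. Proliferation genes were lower in 10 of 14 cases, with a median of -1.79, and glycolysis genes in 8 of 15, with a median of -1.14. In the other cells 8 of 15 proliferation genes were lower, with a median of -1.13, and 7 of 15 glycolysis genes, with a median of -0.79. Apoe stood at 2154 CPM in WD and 5510 CPM in CD.

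Set against HFD, the WD cells shared the limits of software, depth, capture and gene length, and both libraries also stand in the comparisons above. Of 6547 genes, 41.9% were higher by 2-fold or more in WD and 11.1% were lower. Retnla was 3.42-fold (3.30 to 3.54) lower and Lyz1 4.44-fold (3.92 to 5.03) lower in WD, and Tnip3 was 10.9-fold (7.04 to 18.0) higher. NF-kB genes and immediate early genes were higher in 18 of 19 cases each, with medians of 3.45 and 3.46, and MHC class II genes were lower in 6 of 9, with a median of -1.28.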

How the data were processed

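Single-cell UMI counts were analysed in 3 libraries, 1 per diet. The deposited files hold raw counts per gene and barcode; the software version was 3.0.1 for HFD and CD and 7.2.0 for WD, per the file headers. GRCm38 and Seurat are named per the submitters' processing notes. The sources used here do not give the pooling of mice or the counting of intronic reads. Library totals were 79269380 (WD), 16630481 (HFD) and 17464149 (CD) UMIs, of which the Ear2 Fn1 cells held 1065397, 266848 and 787301. A count of 3 UMIs, the level given for a count of 0, stood for 2.82, 11.2 and 3.81 CPM.

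From these counts, cells were chosen by the rule in the report, summed per library and scaled to CPM over the 30406 genes shared by Ensembl ID. A gene was called at 2-fold with at least 20 UMIs over both groups, and genes at 0 in one group only where the level of 3 UMIs gave a bound. Poisson, Clopper-Pearson and conditional ratio intervals were exact, from scipy 1.17.1 in Python 3.11.15 with numpy 2.4.6 and pandas 2.3.3. Neighbours (scikit-learn 1.9.0) used 2000 genes, 30 components and 15 neighbours. Doublets were marked at 0.8% per 1000 cells and kept. Scripts were tested on simulated data. Positions come from GENCODE on GRCm38 and promoter windows from RefSeq.

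The cells, lists and rules were chosen with earlier results of these data known. Named genes had at least 100 UMIs in each comparison, excluded mitochondrial, ribosomal and heart parenchyma genes, and were past 2-fold one way in all 3 libraries, ranked by the smallest ratio (15 higher, 10 lower), or were the 10 (HFD) or 6 (WD) largest and smallest ratios to CD. The rule's genes, the proposed markers, Ccr2 and 2 to 4 examples a list were added; Itgax, Lyz2, Arg1, Apoe, Csf1r and Adgre1 were named after their values were seen. With 1 library a diet no test was made. Alternatives covered the gate, the depth, the minimum count, the fold, the scaling and the other group.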

Additional observations from a re-analysis of the deposited data

Results flagged for a closer look

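The log2 ratio between the libraries of 2 diets had opposite signs in the Ear2 Fn1 cells and in the other C1q-gated cells for 5 genes. With 1 library a diet these differences were not tested, and for WD over CD diet, software version and depth cannot be told apart. Retnla, HFD over CD, had a log2 ratio of 1.24 in the Ear2 Fn1 cells and -0.38 in the other cells. F13a1, a transglutaminase of macrophages, had 0.80 in the Ear2 Fn1 cells, at 281 CPM in HFD and 161 CPM in CD, and -0.26 in the other cells. Ccl17 had -6.74 in the Ear2 Fn1 cells and 0.45 in the other cells, at 20.7 CPM in HFD and 15.2 CPM in CD. For WD over CD, Mmp12 had -0.42 in the Ear2 Fn1 cells, where the CD level rested on a few cells, and 0.93 in the other cells. Ccr2 had 0.24 in the Ear2 Fn1 cells and -1.08 in the other cells.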

How the results depend on the processing

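No paired analysis was possible because each diet has 1 library. The share of Ear2 Fn1 cells was 0.983% (WD), 1.49% (HFD) and 2.13% (CD) with the thinned gate, 0.742%, 1.28% and 2.17% with C1q genes at 1% or more, and 0.565%, 1.5% and 2.18% with at least 1 UMI of each of Ear2 and Fn1. It was 1.90% (WD) and 3.37% (HFD) at 5% mitochondrial UMIs, and 1.94% (WD) with 1 UMI of Timd4 plus Lyve1 allowed. The 106 genes higher in all 3 libraries became 66 with C1q at 1%, 46 at 100 UMIs, 848 without a minimum, 232 at 1.5-fold and 49 with cells thinned before summing. The 209 lower became 129 with the thinned gate, 125 with C1q at 1%, 541 at 1.5-fold, 71 with thinned sums and 132 against the remaining cells. For HFD over CD, the 128 higher became 68 with the thinned gate, 75 with C1q at 1% and with each of both genes, 4 at 100 UMIs, 1550 without a minimum, 455 at 1.5-fold and 24 with thinned sums, and the 623 lower became 350, 235 (C1q), 80, 1783, 1175 and 94. For WD over CD, the 2721 higher became 903 with C1q at 1%, 1083 at 100 UMIs, 5424 without a minimum and 258 with thinned sums, and the 1235 lower became 611, 487, 2893, 273 and, at 1.5-fold, 2067. Against the remaining cells 11 of 19 resident and 1 of 2 MHC class II genes stayed past 2-fold, and 9 of 14 NF-kB genes stayed lower in HFD at 100 UMIs.

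Of named genes past 2-fold, 2087 of 2102 values over 20 settings kept their sign and 2047 stayed past 2-fold. Most of these genes were picked for large ratios in the same cells, and several settings kept those cells. The count is therefore no independent check. Against the other cells, Spp1 in HFD turned to -3.09 with the thinned gate, -1.80 with 3 UMIs of Ear2 plus Fn1, -3.00 with each of both and -0.74 without its leading cell. Gpnmb turned to -0.53 (CD), -0.26 (HFD) and -0.30 (WD) with the thinned gate, to -2.15, -0.18 and -1.97 in HFD with 3 UMIs, each of both and no leading cell, and to -0.48 in WD without its leading cell. Cd209a turned to -0.89 (CD) with the thinned gate and to -2.35 (HFD) without cells of dendritic markers. Mmp12, HFD over CD, turned to 0.79 with the thinned gate, and Tnip3, WD over CD, to -1.74 with C1q at 1%. The thinned gate has fewer cells and UMIs; the other causes were not tested. Median-ratio scaling shifted the diet ratios by -0.10 (HFD over CD) and 0.30 (WD over CD).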

Other observations

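Some cells carried at least 3 markers of a cell type other than a macrophage, monocyte or dendritic cell. They were 3 of the 52 Ear2 Fn1 cells in WD, 2 of the 47 in HFD and 9 of the 90 in CD. Among the other C1q-gated cells they were 468 of 3665 in WD, 50 of 1955 in HFD and 199 of 2203 in CD. Neutrophil markers summed to 40.4 CPM in WD, 161 CPM in HFD and 589 CPM in CD, against 1266, 194 and 875 CPM in the other C1q-gated cells. Mural cell markers reached 151 CPM in CD, against 5.94 CPM in the other cells, and 2 CD cells held at least 3 of them.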
